A study of Schizosaccharomyces pombe with 8 samples.

Results

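Fission yeast (Schizosaccharomyces pombe) makes ergosterol, its main membrane sterol, through a long pathway that starts from acetyl-CoA, and a membrane-bound transcription factor, Sre1, sets the activity of part of that pathway. The genes described here are 8 features chosen by name: the regulators sre1 and scp1 and the enzyme genes hmg1, erg11, erg25, erg27, erg6 and erg5. They were taken as sense features from the 6973 features counted, and all 8 were among the 6620 features that passed the filter on low counts. Their RNA levels were compared in 4 genotypes with 2 libraries each: mot2∆ mamRNA∆ (h90, mamRNA::hygTK with mot2::kanMX), mot2∆ (h90, mot2::natMX), mamRNA∆ (h90, mamRNA::natMX) and wild type (wt, h90).

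All strains were homothallic (h90) cells, which can switch mating type and mate within one culture. They were grown in EMM, a minimal medium, at 30 °C for 2 days and collected while growing exponentially at an optical density of 0.6. The single mutants carry a different drug marker at each locus from mot2∆ mamRNA∆, so marker and genotype cannot be told apart in the comparisons between them. Mot2 is the ubiquitin ligase subunit of Ccr4-Not, a complex that deadenylates mRNAs, while mamRNA, a long RNA without a protein product, binds the RNA-binding proteins Mmi1 and Mei2. Comparing mot2∆ mamRNA∆ with each single mutant gives the effect of a deletion where the other gene is already lost. Whether that effect depends on the other gene is asked by its difference from the effect of the same deletion in wt cells. The labels do not say whether the 2 libraries of a genotype came from separate cultures, so p-values measure the spread between these libraries, which may be technical.

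Sre1 is the fission yeast counterpart of the mammalian sterol regulatory element-binding proteins. It stays in the endoplasmic reticulum with its escort Scp1 while sterols and oxygen are plentiful. When they run low it moves to the Golgi, where the Dsc ubiquitin ligase complex and the rhomboid protease Rbd2 are needed for its cleavage, and the released fragment enters the nucleus and activates genes of oxygen-requiring synthesis, sre1 among them. Ofd1 speeds the turnover of that fragment when oxygen is present, and Nro1 holds Ofd1 back. Sterol synthesis uses oxygen at several steps, iron in several of its enzymes and heme in the cytochrome enzymes Erg11 and Erg5. None of these proteins, and no sterol, was measured here: all values are RNA.

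Libraries held between 22381332 and 34667534 counts. Levels are given as CPM, counts per 1000000 counts of a library, scaled by TMM, a normalization that aligns the bulk of the features between libraries. The lowest level of any of the 8 genes in any library was 46.4 CPM, against a floor of 3 counts that corresponded to 0.0847 to 0.141 CPM. CPM is not corrected for gene length, so levels are compared between genotypes and not between genes. Counts of mot2 itself were 84 to 131 in the 4 libraries of strains that lack it and 474 to 667 in the other 4. No such check was made of the mamRNA∆ labels, since the level of mamRNA itself is not analysed here. The wt libraries differed more from each other than those of any other genotype: all 8 genes were higher in wt replicate 1 than in replicate 2, by a median of 0.22 on the log2 scale, while 46.7% of all features were. Ribosomal RNA took 2.28% of the counts of wt replicate 1 and 0.134% to 0.735% in the other 7 libraries. The part of this difference in the comparisons with wt was not tested beyond leaving out each wt library.

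Each mutant was compared with wt, and mot2∆ mamRNA∆ with each single mutant. A gene passed where edgeR's quasi-likelihood test, fitted over all features, gave a Benjamini-Hochberg adjusted p under 0.05. Changes are log2 fold changes with their standard error (SE). The mutants share the wt libraries, so their changes against wt are given side by side and are not independent of each other.

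The levels of sre1 were highest in the strains lacking Mot2. They were 297 and 279 CPM in mot2∆ mamRNA∆, 332 and 290.4 CPM in mot2∆, 222 and 233 CPM in mamRNA∆, and 188 and 152 CPM in wt. Every mutant library lay above both wt libraries, both mamRNA∆ libraries lay between wt and the other mutants, and the mot2∆ mamRNA∆ libraries overlapped those of mot2∆. On the log2 scale sre1 was higher by 0.76 ± 0.0993 (SE) in mot2∆ mamRNA∆ than in wt (edgeR adjusted p = 3.89e-05), by 0.87 ± 0.0994 in mot2∆ (adjusted p = 1.43e-05) and by 0.42 ± 0.099 in mamRNA∆ (adjusted p = 0.00536). The last of these rested in part on wt replicate 2: without it the change in mamRNA∆ was 0.27 (edgeR adjusted p = 0.051).

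Deleting mamRNA had a different effect on sre1 in the presence and in the absence of Mot2. In mot2∆ cells its loss moved sre1 by -0.11 ± 0.0981 (edgeR adjusted p = 0.358, 95% interval -0.32 to 0.10), and in cells with Mot2 it raised sre1 by 0.42. The difference between these effects was -0.53 ± 0.139 (edgeR adjusted p = 0.00804), so the rise in mot2∆ mamRNA∆ fell short of both single-mutant rises added together. Deleting mot2 in mamRNA∆ cells raised sre1 by 0.34 ± 0.0983 (edgeR adjusted p = 0.0096). That call was lost without mamRNA∆ replicate 1 (0.31, adjusted p = 0.0598) and without mot2∆ mamRNA∆ replicate 1 (0.30, adjusted p = 0.0736).

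The escort gene scp1 changed less and in another order. Its mRNA stood at 279 and 287 CPM in mot2∆ mamRNA∆, 283 and 259 CPM in mot2∆, 355 and 344 CPM in mamRNA∆, and 317 and 285 CPM in wt. The mamRNA∆ libraries were the highest of all and overlapped no other genotype, while mot2∆ mamRNA∆ overlapped both mot2∆ and wt. The scp1 level was lower in mot2∆ mamRNA∆ than in mamRNA∆ by -0.31 ± 0.0763 (edgeR adjusted p = 0.00409), which became -0.28 without mot2∆ mamRNA∆ replicate 1 (adjusted p = 0.0573). Its rise in mamRNA∆ against wt, 0.22 ± 0.0764, passed narrowly (edgeR adjusted p = 0.0385). Leaving out wt replicate 2 lowered that rise to 0.14 (adjusted p = 0.163), and the call was lost in 7 of 17 alternative fits in all, with adjusted p up to 0.193 (without mamRNA∆ replicate 1). The changes in mot2∆ (-0.15, adjusted p = 0.108) and mot2∆ mamRNA∆ (-0.091, adjusted p = 0.325) against wt did not pass, except that the value in mot2∆ did without wt replicate 2 (-0.23, adjusted p = 0.0263).

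**Figure D1:**
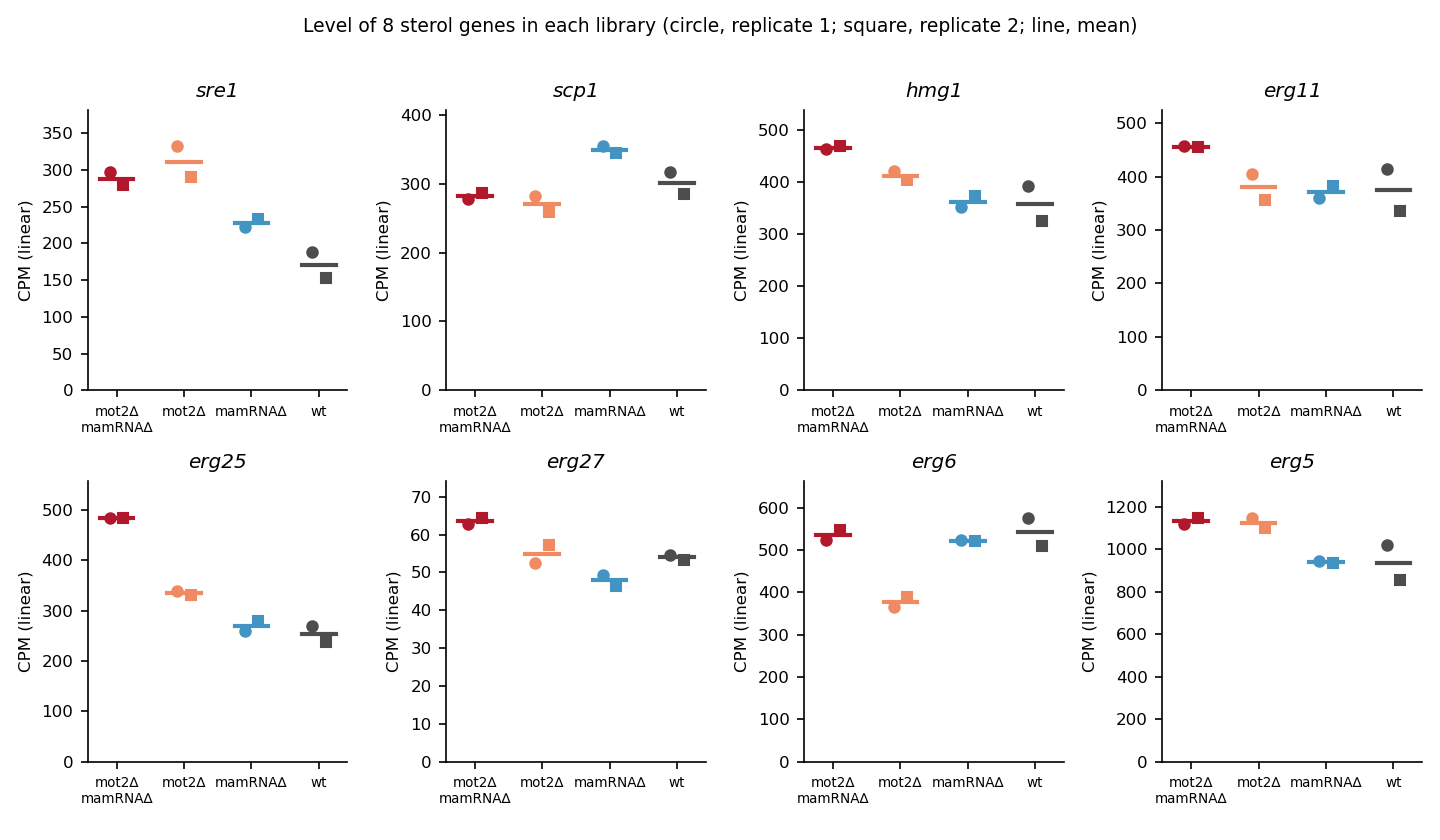
Level of each of the 8 genes (CPM, linear axis from 0) in mot2∆ mamRNA∆, mot2∆, mamRNA∆ and wt, with a circle for replicate 1, a square for replicate 2 and a line at the mean. The 2 mot2∆ mamRNA∆ libraries lie at 485 CPM for erg25, above all others, and both mot2∆ libraries lie at the bottom for erg6.

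Among the enzymes, hmg1 encodes HMG-CoA reductase, the committed and most tightly controlled step of the mevalonate pathway. It had 464 and 469 CPM in mot2∆ mamRNA∆, 421 and 404 CPM in mot2∆, 352 and 373 CPM in mamRNA∆, and 393 and 326 CPM in wt. Both mot2∆ mamRNA∆ libraries stood above all the others, the mot2∆ libraries came next, and the mamRNA∆ libraries fell inside the range of wt. Against wt, hmg1 was higher by 0.38 ± 0.0899 in mot2∆ mamRNA∆ (edgeR adjusted p = 0.00317). Against mamRNA∆ it was higher by 0.36 ± 0.0897 (edgeR adjusted p = 0.00389), and both calls held in each alternative fit. The value in mot2∆ against wt was 0.20 ± 0.0898 and did not pass (edgeR adjusted p = 0.0727), although it did with total counts as the scale (0.24, adjusted p = 0.0104) and without wt replicate 1 (0.37, adjusted p = 0.0026). The value in mamRNA∆ against wt was 0.014 (95% interval -0.18 to 0.21), and that in mot2∆ mamRNA∆ against mot2∆ was 0.18 (95% interval -0.018 to 0.37), which passed without wt replicate 1 (adjusted p = 0.0246) or replicate 2 (adjusted p = 0.0216), and in a fit of these genotypes alone (adjusted p = 0.0479). The difference between the effects of deleting mamRNA in mot2∆ and in wt cells was 0.16 for hmg1 (95% interval -0.11 to 0.44), and 0.30 without wt replicate 2 (edgeR adjusted p = 0.0224).

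Erg11 is the sterol demethylase that azole antifungals inhibit, a heme enzyme that uses oxygen. Its mRNA was at 457 and 456 CPM in mot2∆ mamRNA∆, 406 and 357 CPM in mot2∆, 359.9 and 382 CPM in mamRNA∆, and 414 and 336 CPM in wt. The single mutants and wt overlapped, and the mot2∆ mamRNA∆ libraries lay above all of them. The rise of erg11 in mot2∆ mamRNA∆ was 0.28 ± 0.101 against wt (edgeR adjusted p = 0.0283), 0.26 ± 0.101 against mot2∆ (adjusted p = 0.0436) and 0.30 ± 0.101 against mamRNA∆ (adjusted p = 0.022). Each of these calls was lost in some alternative fits. Without wt replicate 2 the rise against wt was 0.14 (edgeR adjusted p = 0.211), the call against mot2∆ was lost in 10 of 17 alternative fits (adjusted p up to 0.25, without mot2∆ replicate 2), and that against mamRNA∆ was lost in 3 of 18 (adjusted p up to 0.128, without mamRNA∆ replicate 1). The difference between the effects of deleting mamRNA was 0.27 for erg11 (95% interval -0.036 to 0.58), and 0.42 without wt replicate 2 (edgeR adjusted p = 0.015).

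The largest change of the 8 genes was that of erg25, the methyl sterol oxidase that starts the removal of the methyl groups left on the ring after Erg11 and Erg24. Its mRNA reached 485 CPM in both mot2∆ mamRNA∆ libraries, against 339 and 331 CPM in mot2∆, 259 and 279 CPM in mamRNA∆, and 269 and 237 CPM in wt. The mot2∆ mamRNA∆ libraries were apart from all others, the mot2∆ libraries were apart from mamRNA∆ and wt below them, and mamRNA∆ and wt overlapped. Against wt, erg25 rose by 0.94 ± 0.0789 in mot2∆ mamRNA∆, a 1.92-fold higher level (edgeR adjusted p = 1.31e-06). It rose by 0.41 ± 0.0785 in mot2∆ (edgeR adjusted p = 8e-04), and the value in mamRNA∆ was 0.091 ± 0.0784 (adjusted p = 0.375, 95% interval -0.080 to 0.26), or 0.20 without wt replicate 1 (adjusted p = 0.0473).

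The change of erg25 with both deletions was larger than with either. It was higher in mot2∆ mamRNA∆ by 0.53 ± 0.0782 than in mot2∆ (edgeR adjusted p = 0.000121) and by 0.85 ± 0.0786 than in mamRNA∆ (adjusted p = 2.13e-06). The effect of deleting mamRNA was larger in mot2∆ cells than in wt cells by 0.44 ± 0.111 (edgeR adjusted p = 0.0059). These calls and those in mot2∆ mamRNA∆ and mot2∆ against wt held in each alternative fit, where the difference between the effects ranged from 0.32 to 0.53 (adjusted p up to 0.0391). No other counted feature overlaps erg25 in the RefSeq annotation of the ASM294v3 assembly.

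The reductase Erg27 completes the same round of methyl removal that Erg25 starts. Its mRNA was at 62.7 and 64.5 CPM in mot2∆ mamRNA∆, 52.5 and 57.1 CPM in mot2∆, 49.3 and 46.4 CPM in mamRNA∆, and 54.7 and 53.2 CPM in wt. The mot2∆ mamRNA∆ libraries were the highest, the mamRNA∆ libraries the lowest, and mot2∆ and wt overlapped between them. The rise of erg27 in mot2∆ mamRNA∆ was 0.24 ± 0.0688 against wt (edgeR adjusted p = 0.0101), 0.21 ± 0.068 against mot2∆ (adjusted p = 0.018) and 0.41 ± 0.0683 against mamRNA∆ (adjusted p = 0.000248). In mamRNA∆ against wt its value was -0.17 ± 0.0694 and did not pass (edgeR adjusted p = 0.0631; 0.0488 without mot2∆ replicate 2), and in mot2∆ it was 0.024 (adjusted p = 0.786). The difference between the effects of deleting mamRNA in mot2∆ and in wt cells was 0.39 ± 0.0972 (edgeR adjusted p = 0.00616).

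With total counts as the scale, the erg27 call against wt (0.18, edgeR adjusted p = 0.0564), that against mot2∆ (0.13, adjusted p = 0.169) and the difference between effects (0.27, adjusted p = 0.0584) were lost, and that against mamRNA∆ was kept. The call against wt was also lost without mot2∆ mamRNA∆ replicate 2 (edgeR adjusted p = 0.0649), and that against mot2∆ without mot2∆ replicate 1 (0.15, adjusted p = 0.144) or either mot2∆ mamRNA∆ library (adjusted p = 0.0659 and 0.131). The counts of erg27 and of the feature named erg27-antisense-1 were nearly equal in every library, with a ratio of antisense to sense between 0.985 and 1.01, so reads of the gene and of its antisense partner cannot be told apart. Among 564 such pairs in the counts, 167 (29.6%) had totals within 10% of each other.

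The sterol methyltransferase Erg6, which adds the methyl group that marks fungal sterols, had a pattern of its own. Its feature stood at 524 and 547 CPM in mot2∆ mamRNA∆, 366 and 389 CPM in mot2∆, 524 and 521 CPM in mamRNA∆, and 577 and 511 CPM in wt. The 2 mot2∆ libraries lay far below the other 6, which overlapped. Against wt, erg6 fell by 0.53 on the log2 scale in mot2∆ (SE 0.0822, edgeR adjusted p = 0.000171). The value in mot2∆ mamRNA∆ against wt was -0.022 (95% interval -0.20 to 0.16) and that in mamRNA∆ was -0.057 (95% interval -0.24 to 0.12), neither of which passed.

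Thus erg6 was higher in mot2∆ mamRNA∆ than in mot2∆, by 0.50 ± 0.0821 (edgeR adjusted p = 0.000264), and the effect of deleting mamRNA differed between mot2∆ and wt cells by 0.56 ± 0.116 (adjusted p = 0.00182). Both calls and the fall in mot2∆ held in each alternative fit. In the ASM294v3 annotation erg6 overlaps uvi31, and the ratio of uvi31 to erg6 counts was between 1.06 and 1.09 in every library. The fall in mot2∆ was -0.52 ± 0.0811 for uvi31 (edgeR adjusted p = 0.000156). The values given for erg6 and those of uvi31 cannot be told apart here.

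Erg5 is the sterol desaturase that acts near the end of the pathway, also a heme enzyme. Its mRNA was at 1121 and 1148 CPM in mot2∆ mamRNA∆, 1150 and 1100 CPM in mot2∆, 945 and 936 CPM in mamRNA∆, and 1020 and 854 CPM in wt. The libraries lacking Mot2 all lay above the 4 others, mot2∆ mamRNA∆ overlapped mot2∆, and mamRNA∆ fell within the range of wt. The rise of erg5 was 0.28 ± 0.0951 in mot2∆ mamRNA∆ against wt (edgeR adjusted p = 0.0246), 0.26 ± 0.0951 in mot2∆ against wt (adjusted p = 0.0301) and 0.27 ± 0.095 in mot2∆ mamRNA∆ against mamRNA∆ (adjusted p = 0.0267). Without wt replicate 2 the first was 0.15 (edgeR adjusted p = 0.0925) and the second 0.14 (adjusted p = 0.117). The 3 calls were lost in 3, 7 and 4 of their alternative fits, with adjusted p up to 0.135, 0.129 and 0.155. The effects of deleting mamRNA in mot2∆ cells (0.012) and in wt cells (0.0058) did not pass (edgeR adjusted p = 0.927 and 0.97), nor did their difference (0.0060, 95% interval -0.29 to 0.30).

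**Figure D2:**
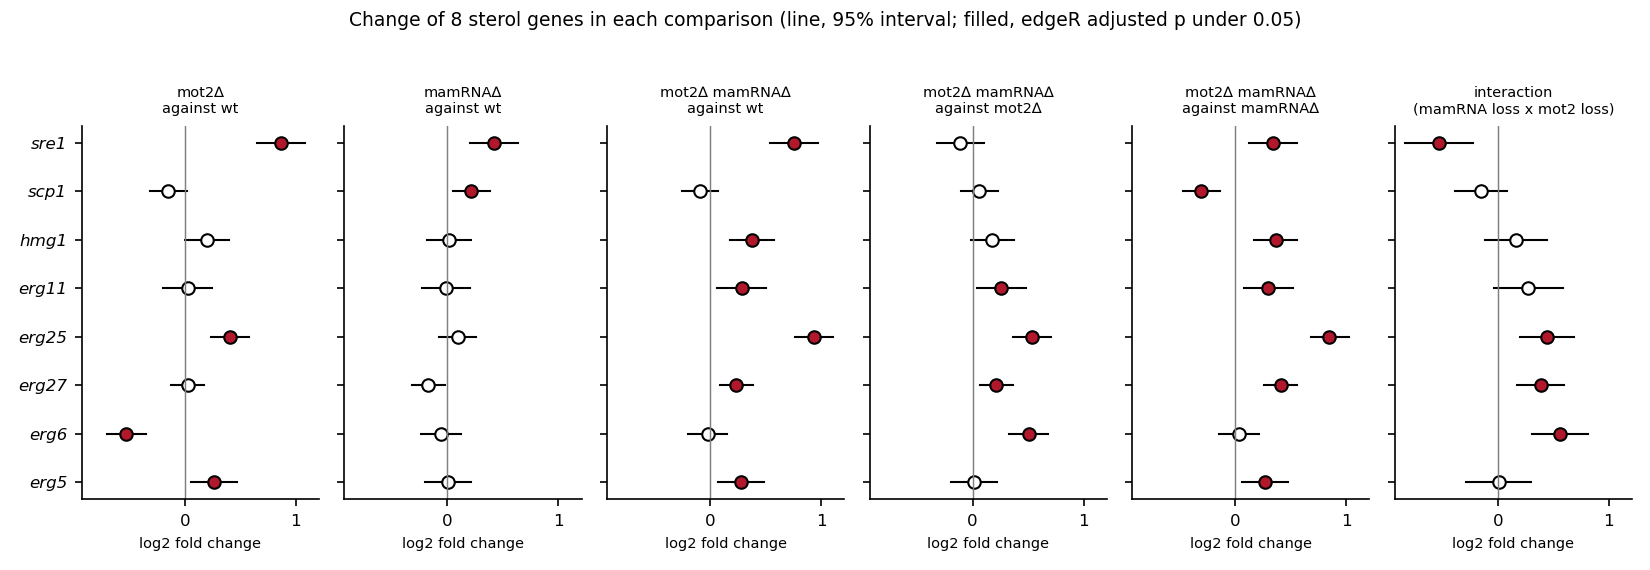
Log2 fold change of the 8 genes in each of the 6 comparisons, with 95% intervals and filled points where the edgeR adjusted p was under 0.05. In mot2∆ mamRNA∆ against wt the changes run up to 0.94 for erg25, and in mot2∆ against wt sre1 (0.87) and erg6 (-0.53) lie farthest from 0.

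Counted together, 6 of the 8 genes were higher and 0 lower in mot2∆ mamRNA∆ than in wt, where 28.9% of all features were higher and 30.5% lower (59.4% in either direction). An unadjusted p under 0.05 and DESeq2 also gave 0 lower. Without mot2∆ mamRNA∆ replicate 2, 3 of the 8 passed. The median change of the 8 was 0.28, against -0.0094 over all features. In mot2∆ against wt 3 were higher and 1 lower (background 29.1% and 30.2%), with a median of 0.11, and in mamRNA∆ against wt 2 were higher and 0 lower (background 19.9% and 22.7%), with a median of 0.010. At an unadjusted p under 0.05 the last count was 1 lower, and DESeq2 gave 0. In mamRNA∆ 0 of the 8 passed without wt replicate 2, and 1 passed when either mamRNA∆ or either mot2∆ mamRNA∆ library was left out. The shares in both single mutants, 4 of 8 and 2 of 8, were below the 59.2% and 42.5% of all features that passed in either direction, so no more of the 8 genes passed there than of features at large.

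Against the single mutants, 4 genes were higher and 0 lower in mot2∆ mamRNA∆ than in mot2∆ (background 27.4% and 28.8%, or 56.2% either way; 0 lower also at an unadjusted p and with DESeq2), and 2 passed when either mot2∆ mamRNA∆ library was left out. Against mamRNA∆, 6 were higher and 1 lower (background 29.6% and 30.8%, or 60.4% either way). Of these 7, the count without mot2∆ mamRNA∆ replicate 1 was 3, and without mamRNA∆ replicate 1 it was 4. The difference between the effects of deleting mamRNA in mot2∆ and in wt cells passed for 3 genes in the positive and 1 in the negative direction (background 24.4% and 23.3%, or 47.6% either way). In total, about as many of the 8 genes passed this test as of features at large. The count past a fold limit that follows is near the low share of all features, so it does not set the 8 genes apart. None of the 8 genes combined an adjusted p under 0.05 with a change over 1 on the log2 scale in any of the 6 comparisons, also at an unadjusted p and with DESeq2, while of all features 8.56% did in mot2∆ against wt, 3.99% in mamRNA∆ against wt, 8.79% in mot2∆ mamRNA∆ against wt, 6.74% against mot2∆, 9.86% against mamRNA∆ and 11.1% for the difference between effects.

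**Figure D3:**
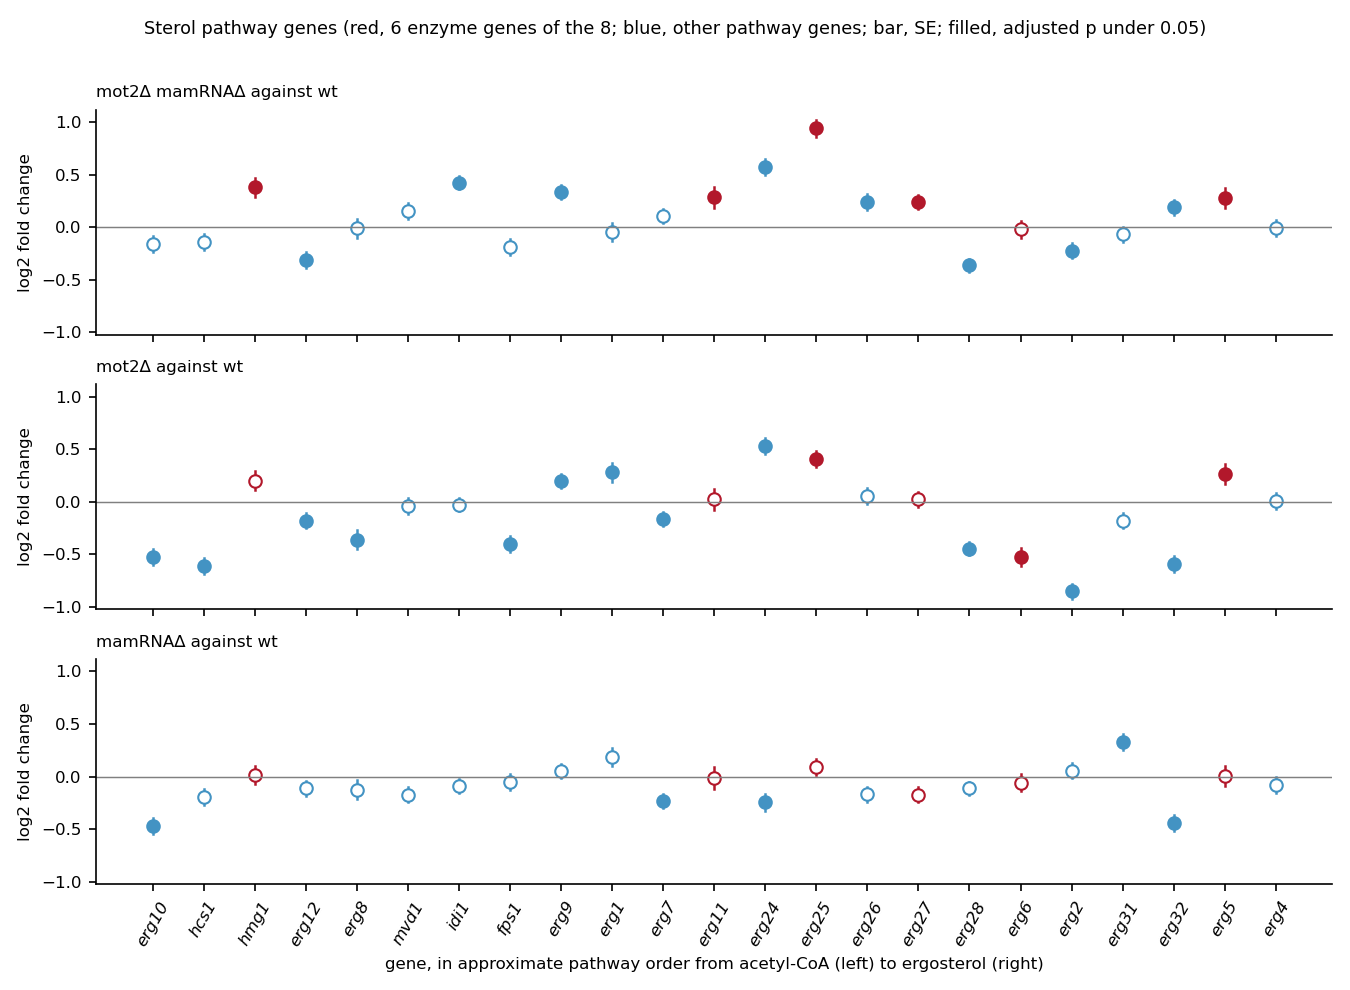
Log2 fold change against wt (bar, SE; filled, edgeR adjusted p under 0.05) of the sterol pathway genes in approximate order from acetyl-CoA to ergosterol, in mot2∆ mamRNA∆, mot2∆ and mamRNA∆. In mot2∆ 5 of the 7 other mevalonate genes lie below 0 with filled points, and in mot2∆ mamRNA∆ 1 of the 7 does. Of the former, erg12 passed narrowly (edgeR adjusted p of 0.05 after rounding).

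The other genes of the pathway did not follow the 8 as a block. Of 7 further mevalonate pathway genes, 0 were higher and 5 lower in mot2∆ than in wt (edgeR, median -0.36; background 29.1% and 30.2%; 0 higher and 5 lower also at an unadjusted p, 0 and 4 with DESeq2). The largest of these falls was in hcs1, HMG-CoA synthase, which had 175 and 187 CPM in mot2∆ and 290.2 and 261 CPM in wt (-0.61 ± 0.0763, edgeR adjusted p = 3.06e-05). The smallest was in erg12 (-0.18 ± 0.0726), which passed narrowly, with an edgeR adjusted p of 0.05 after rounding. In mot2∆ 4 of the 7 passed with total counts as the scale, and 4 with a replicate block. In mot2∆ mamRNA∆ 1 of the 7 was higher and 1 lower than in wt, with a median of -0.14. This share was below the 59.4% of all features that passed. With total counts as the scale, or without wt replicate 2, 5 of the 7 passed in that comparison.

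Against mot2∆, 6 of the 7 mevalonate genes were higher and 0 lower in mot2∆ mamRNA∆ (median 0.35; background 27.4% and 28.8%; 0 lower also at an unadjusted p and with DESeq2), but 3 with total counts as the scale. In mamRNA∆ against wt 0 were higher and 1 lower (edgeR, median -0.13; background 19.9% and 22.7%), with 0 and 3 at an unadjusted p and 0 and 1 with DESeq2, and without wt replicate 1 (2), wt replicate 2 (3) or mot2∆ replicate 2 (2) more passed. Against mamRNA∆, 3 of the 7 were higher and 1 lower in mot2∆ mamRNA∆ (background 29.6% and 30.8%; 2 in all without mot2∆ mamRNA∆ replicate 2). The difference between the effects of deleting mamRNA passed in the positive direction in 5 of the 7 and in the negative in 0 (background 24.4% and 23.3%; 0 also at an unadjusted p and with DESeq2). It was 0.83 ± 0.108 for erg10, the acetyl-CoA acetyltransferase that opens the pathway (edgeR adjusted p = 5.73e-05), which had 185 and 201 CPM in mot2∆ mamRNA∆, 146 and 153 CPM in mot2∆, 155 and 156 CPM in mamRNA∆, and 229 and 201 CPM in wt. For hcs1 it was 0.66 ± 0.107 (edgeR adjusted p = 0.000352). The feature hcs1-antisense-1 held 0.656 to 0.691 counts per count of hcs1, so part of the hcs1 counts cannot be told apart from it. The same holds for erg8, whose overlapping feature slx1 held 0.992 to 1.02 counts per count of the gene, and for mvd1, where mvd1-antisense-1 held 0.775 to 0.867.

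Of 10 further genes between squalene and ergosterol, 4 were higher and 2 lower in mot2∆ mamRNA∆ than in wt, 3 higher and 4 lower in mot2∆, and 1 higher and 3 lower in mamRNA∆. These totals of 6, 7 and 4 of 10 stood beside backgrounds of 59.4%, 59.2% and 42.5% in either direction, so about as many passed as of features at large. Leaving out either mot2∆ mamRNA∆ library left 3 calls in mot2∆ mamRNA∆, and either mamRNA∆ library 2 in mamRNA∆. Against mot2∆ 3 were higher and 1 lower in mot2∆ mamRNA∆, against mamRNA∆ 5 higher and 4 lower, and the difference between effects was positive in 5 and negative in 1 (background 56.2%, 60.4% and 47.6% in either direction). Features that overlap erg7 (SPAC4G9.22) and erg28 (SPBC337.10c) held 2.51 to 5.07 and 1.54 to 2.05 counts per count of these genes, so the counts of both cannot be told apart from them. The sterol isomerase gene erg2 had 137 and 141 CPM in mot2∆ mamRNA∆, 87.0 and 93.1 CPM in mot2∆, 173 and 164 CPM in mamRNA∆, and 172 and 154 CPM in wt. Its fall in mot2∆ against wt was -0.85 ± 0.0729 (edgeR adjusted p = 1.3e-06), and its rise in mot2∆ mamRNA∆ against mot2∆ was 0.63 ± 0.0726 (adjusted p = 1.88e-05). The mot2∆ libraries of erg2 were thus the lowest, and those of mot2∆ mamRNA∆ lay between them and the others.

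The sterol desaturase gene erg32 had 166 and 170.2 CPM in mot2∆ mamRNA∆, 93.5 and 103 CPM in mot2∆, 106 and 111 CPM in mamRNA∆, and 157 and 138 CPM in wt. Both single mutants lay below wt, and mot2∆ mamRNA∆ lay above it. The fall of erg32 in mot2∆ against wt was -0.59 ± 0.0763 (edgeR adjusted p = 3.9e-05), its rise in mot2∆ mamRNA∆ was 0.77 ± 0.076 against mot2∆ (adjusted p = 5.04e-06) and 0.63 ± 0.0757 against mamRNA∆ (adjusted p = 1.86e-05), and the difference between effects was 1.22 ± 0.107 (adjusted p = 2.98e-06). The sterol reductase gene erg24 encodes an enzyme that acts between Erg11 and Erg25. It had 87.1 and 86.6 CPM in mot2∆ mamRNA∆, 83.0 and 86.0 CPM in mot2∆, 50.5 and 48.2 CPM in mamRNA∆, and 63.1 and 54.1 CPM in wt. It rose by 0.82 ± 0.0774 in mot2∆ mamRNA∆ against mamRNA∆ (edgeR adjusted p = 2.6e-06) and by 0.53 ± 0.0777 in mot2∆ against wt (adjusted p = 0.000104). Its value in mot2∆ mamRNA∆ against mot2∆ was 0.040 and did not pass (edgeR adjusted p = 0.682).

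A list of 11 genes held those of Sre1 processing and turnover, with sre2 and ins1 added as related genes. Of these 11, 3 were higher and 1 lower in mot2∆ mamRNA∆ than in wt, 4 higher and 1 lower in mot2∆, and 1 higher and 3 lower in mamRNA∆. These totals of 4, 5 and 4 of 11 were below the 59.4%, 59.2% and 42.5% of all features that passed. The largest rises against wt were those of nro1 and ofd1 in mot2∆ mamRNA∆. Against mot2∆ 4 of the 11 were higher and 3 lower in mot2∆ mamRNA∆, against mamRNA∆ 7 higher and 1 lower, and the difference between effects was positive in 5 and negative in 1 (background 56.2%, 60.4% and 47.6% in either direction). Without wt replicate 1 the number that passed was 7 in mot2∆ mamRNA∆ and 9 in mot2∆, without wt replicate 2 it was 3 in mot2∆, and with total counts as the scale it was 8 in mot2∆. Without mamRNA∆ replicate 2 it was 1 in mamRNA∆, and 2 without wt replicate 1, mamRNA∆ replicate 1 or either mot2∆ mamRNA∆ library.

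The gene nro1 had 446 and 453 CPM in mot2∆ mamRNA∆, 318 and 339 CPM in mot2∆, 234 and 226 CPM in mamRNA∆, and 260.2 and 236 CPM in wt. Its rise in mot2∆ mamRNA∆ was 0.86 ± 0.0748 against wt (edgeR adjusted p = 1.73e-06) and 0.96 ± 0.0748 against mamRNA∆ (adjusted p = 5.07e-07). The mot2∆ libraries of nro1 lay between those of mot2∆ mamRNA∆ and those of wt. For ofd1, with 324 and 319 CPM in mot2∆ mamRNA∆ and 218 and 194 CPM in wt, the rise was 0.64 ± 0.0763 (edgeR adjusted p = 1.88e-05). Against the 211 and 199 CPM of mamRNA∆ it was 0.65 ± 0.0761 (edgeR adjusted p = 1.53e-05). Against the 225 and 243 CPM of mot2∆ it was 0.46 ± 0.0759 (edgeR adjusted p = 0.000302). The value of ofd1 in mot2∆ against wt did not pass (0.18, edgeR adjusted p = 0.0561).

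The gene sre2 encodes the second fission yeast protein of the Sre1 family. It had 269 and 260.4 CPM in mot2∆ mamRNA∆, 206 and 181 CPM in mot2∆, 168 and 177 CPM in mamRNA∆, and 184 and 158 CPM in wt. It rose in mot2∆ mamRNA∆ by 0.63 ± 0.0851 against wt (edgeR adjusted p = 5.06e-05) and by 0.62 ± 0.0848 against mamRNA∆ (adjusted p = 5.48e-05). Against mot2∆ the rise of sre2 was 0.45 ± 0.0846 (edgeR adjusted p = 0.000724), and its value in mot2∆ against wt did not pass (0.18, adjusted p = 0.0887). The gene ins1, the fission yeast counterpart of the mammalian Insig proteins, had 50.5 and 52.0 CPM in mot2∆ mamRNA∆, 52.8 and 49.9 CPM in mot2∆, 32.8 and 33.8 CPM in mamRNA∆, and 51.5 and 46.6 CPM in wt. The mamRNA∆ libraries of ins1 lay below the other 6. It fell by 0.56 ± 0.072 on the log2 scale in mamRNA∆ against wt (edgeR adjusted p = 9.45e-05), and its value in mot2∆ mamRNA∆ against wt was 0.065 (95% interval -0.088 to 0.22) and did not pass (adjusted p = 0.447). For rbd2, at 17.7 and 17.6 CPM in mot2∆ mamRNA∆, 12.8 and 10.8 CPM in mot2∆, 12.4 and 12.6 CPM in mamRNA∆, and 17.2 and 15.3 CPM in wt, the difference between the effects of deleting mamRNA was 0.96 ± 0.154 (edgeR adjusted p = 0.000312). Features that overlap ofd1 (prp1) and sre2 (SPBC354.04) held 0.121 to 0.227 and 0.105 to 0.235 counts per count of these genes. The feature tfs1, which overlaps dsc3, held 0.674 to 0.862 counts per count of dsc3.

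**Figure D4:**
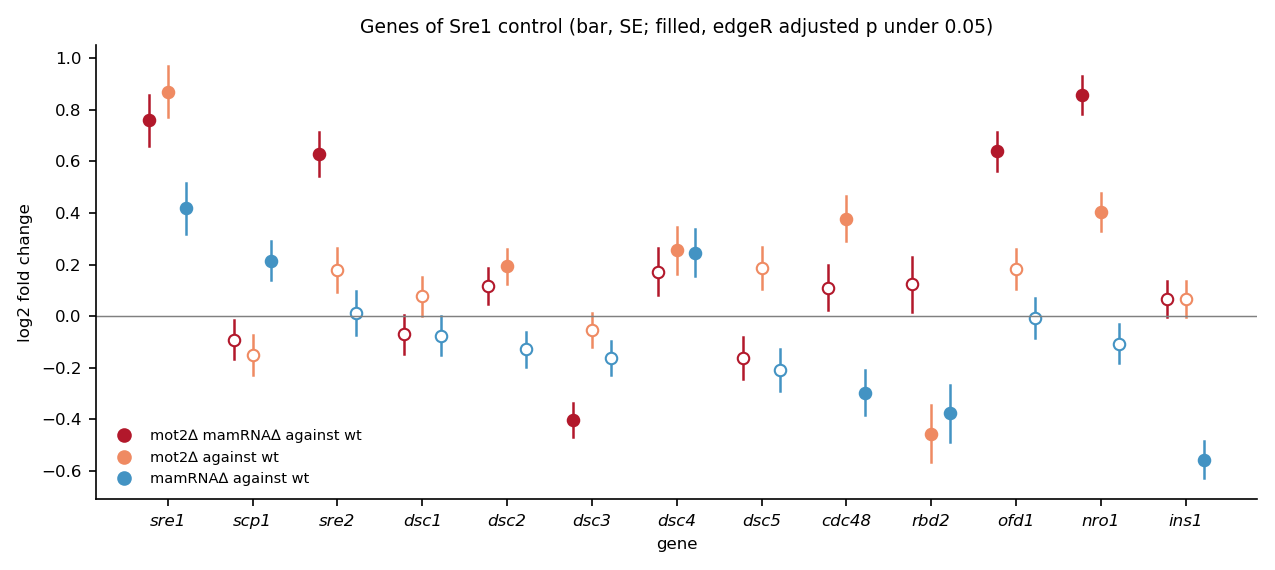
Log2 fold change against wt (bar, SE; filled, edgeR adjusted p under 0.05) of sre1, scp1, the genes of Sre1 processing and turnover and the related genes sre2 and ins1 in mot2∆ mamRNA∆, mot2∆ and mamRNA∆. In mot2∆ mamRNA∆ the values of sre1 (0.76), sre2 (0.63), ofd1 (0.64) and nro1 (0.86) stand above the rest, and the 5 dsc genes lie between -0.40 (dsc3) and 0.17 (dsc4).

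A further list held electron donors, heme binding and other oxygen-dependent proteins. Of its 4 genes (ccr1 for the reductase, dap1 for a heme-binding protein, ole1 for the fatty acid desaturase and hem13 of heme synthesis), 1 was higher and 0 lower in mot2∆ mamRNA∆ than in wt (edgeR; 0 lower also at an unadjusted p and with DESeq2), 1 higher and 2 lower in mot2∆, and 2 higher and 0 lower in mamRNA∆ (0 lower also at an unadjusted p and with DESeq2), beside backgrounds of 59.4%, 59.2% and 42.5% in either direction. The count in mamRNA∆ was 1 when either mamRNA∆ library, either mot2∆ mamRNA∆ library or wt replicate 2 was left out, and that in mot2∆ mamRNA∆ was 2 without wt replicate 1. In mot2∆ mamRNA∆ 2 were higher and 1 lower than in mot2∆ (background 56.2% in either direction). Against mamRNA∆ 0 were higher (1 at an unadjusted p and 1 with DESeq2) and 1 was lower (background 60.4% in either direction). The difference between effects was positive in 1 and negative in 0 (1 at an unadjusted p and 1 with DESeq2), beside a background of 47.6%. Without wt replicate 1 the count was 2 against mamRNA∆ and 3 for the difference, and without wt replicate 2 it was 2 against mamRNA∆. Ccr1 is the reductase that passes electrons to the cytochrome enzymes. Its mRNA stood at 367 and 381 CPM in mot2∆ mamRNA∆, 193 and 207 CPM in mot2∆, 427 and 400.3 CPM in mamRNA∆, and 369 and 351 CPM in wt, and both mot2∆ libraries lay below the other 6. Its fall in mot2∆ against wt was -0.84 ± 0.0744 (edgeR adjusted p = 1.63e-06), its rise in mot2∆ mamRNA∆ against mot2∆ was 0.90 ± 0.0743 (adjusted p = 1.22e-06), and the difference between effects was 0.70 (adjusted p = 0.000179).

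The gene hem13 encodes the oxygen-requiring coproporphyrinogen oxidase of heme synthesis. It had 327 and 315 CPM in mot2∆ mamRNA∆, 199 and 213 CPM in mot2∆, 428 and 429 CPM in mamRNA∆, and 257 and 223 CPM in wt. It rose by 0.84 ± 0.0803 in mamRNA∆ against wt (edgeR adjusted p = 8.83e-06) and by 0.64 ± 0.0802 in mot2∆ mamRNA∆ against mot2∆ (adjusted p = 3.6e-05). The mamRNA∆ libraries of hem13 were the highest, and those of mot2∆ the lowest. Of the 8 genes listed for heme synthesis, 3 were higher and 2 lower in mot2∆ mamRNA∆ than in wt, 4 higher and 4 lower in mot2∆, and 1 higher and 3 lower in mamRNA∆ (background 59.4%, 59.2% and 42.5% in either direction). The shares in mot2∆ mamRNA∆, 5 of 8, and in mamRNA∆, 4 of 8, were close to their backgrounds. In mot2∆ all 8 passed, with 4 in each direction. In mot2∆ mamRNA∆ 3 were higher and 2 lower than in mot2∆, and 3 higher and 4 lower than in mamRNA∆ (background 56.2% and 60.4% in either direction). Features that overlap hem14 (lsh1) and hem15 (SPNCRNA.1113) held 6.82 to 9.23 and 1.33 to 2.95 counts per count of these genes, so the counts of both cannot be told apart from them. One of these 8, ups1, is annotated by RefSeq as a phosphatidic acid transfer protein and not as a heme enzyme, and it was the highest of the list in mot2∆ (1.32 ± 0.0904 against wt, edgeR adjusted p = 2.1e-07).

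Of 3 genes for sterol esters and sterol transport, 1 was higher and 1 lower in mot2∆ mamRNA∆ than in wt, and 1 higher and 0 lower in each single mutant (edgeR; background 59.4% in mot2∆ mamRNA∆, 59.2% in mot2∆ and 42.5% in mamRNA∆ in either direction; 0 lower also at an unadjusted p and with DESeq2). The total was 1 in mot2∆ mamRNA∆ when either of its libraries was left out, and 2 in mot2∆ without wt replicate 1 or mot2∆ replicate 2. Against mot2∆ 0 were higher and 2 lower in mot2∆ mamRNA∆ (0 higher also at an unadjusted p and with DESeq2), and 1 lower when either of its libraries or mot2∆ replicate 1 was left out. In mot2∆ mamRNA∆ against mot2∆, 27.4% of all features were higher and 28.8% lower. The gene are1 encodes an acyltransferase that makes sterol esters for storage. It had 74.8 and 71.3 CPM in mot2∆ mamRNA∆, 104.5 and 89.1 CPM in mot2∆, 111 and 120 CPM in mamRNA∆, and 89.9 and 82.2 CPM in wt. Its change was -0.66 ± 0.0848 in mot2∆ mamRNA∆ against mamRNA∆ (edgeR adjusted p = 3.24e-05) and 0.42 ± 0.0849 in mamRNA∆ against wt (adjusted p = 0.00205). Against mamRNA∆ 1 of the 3 was thus lower and 1 was higher (background 60.4% in either direction). The gene higher than in wt in both mot2∆ and mot2∆ mamRNA∆ was ltc1. Its overlapping feature rtp1 held 0.846 to 1.19 counts per count of ltc1, so the counts of ltc1 cannot be told apart from it. The difference between the effects of deleting mamRNA was -0.83 ± 0.12 for are1 (edgeR adjusted p = 0.000145).

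**Figure D5:**
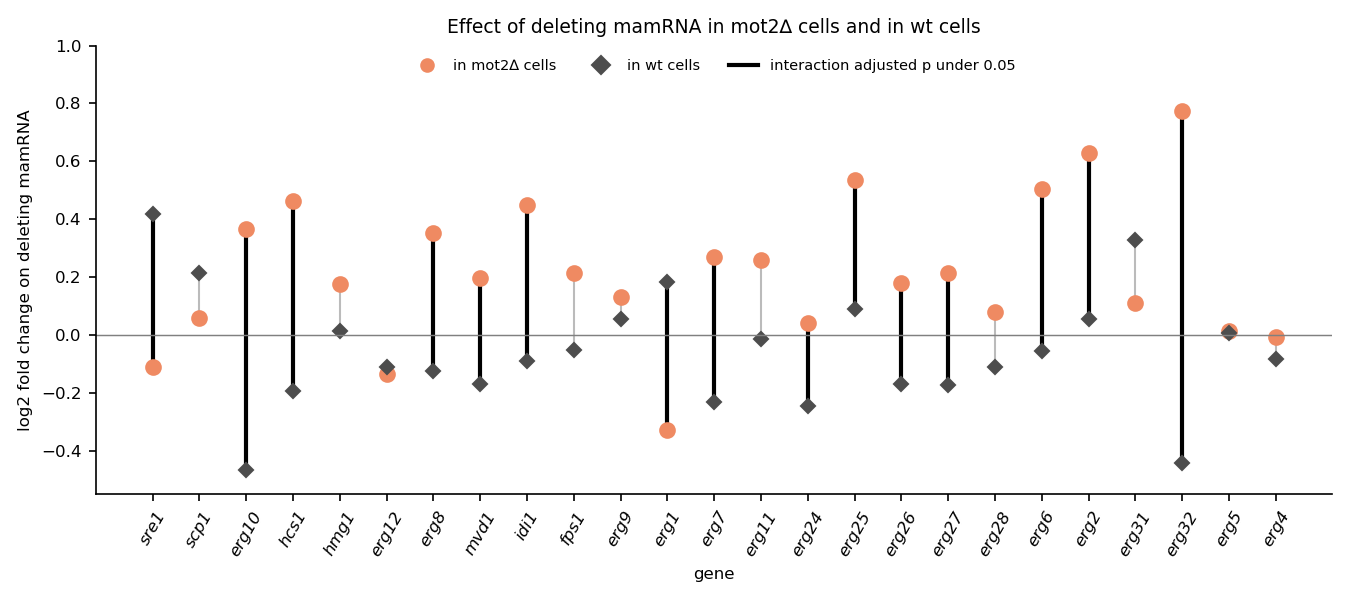
Log2 fold change on deleting mamRNA in mot2∆ cells (circle) and in wt cells (diamond) for sre1, scp1 and the sterol pathway genes, with a thick line where the difference between them had an edgeR adjusted p under 0.05. The circle lies above the diamond for erg6 (0.50 and -0.057), erg25 (0.53 and 0.091) and erg27 (0.21 and -0.17) and below it for sre1 (-0.11 and 0.42).

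Genes of mating and meiosis moved with the genotypes. The 15 mating and meiosis genes listed (ste11, mei2, the pheromone genes mfm1 to mfm3 among them) summed to 1063 and 994 CPM in mot2∆ mamRNA∆, 3229 and 2988 CPM in mot2∆, 921 and 993 CPM in mamRNA∆, and 1298 and 1053 CPM in wt, and 0 of the 15 were at 0 in any library. Of these, 14 were higher and 0 lower in mot2∆ than in wt (edgeR; background 29.1% and 30.2%; 0 lower also at an unadjusted p and with DESeq2), 15 of 15 were lower in mot2∆ mamRNA∆ than in mot2∆ (background 28.8%), 3 were higher and 5 lower in mot2∆ mamRNA∆ than in wt (background 28.9% and 30.5%), and 0 were higher and 7 lower in mamRNA∆ than in wt (background 19.9% and 22.7%; 1 higher at an unadjusted p and 0 with DESeq2). The mot2∆ libraries were thus the highest in the sum of these genes. Of the 8 genes, erg6 alone had its mot2∆ libraries above or below all others, and there they were the lowest. The part of mating cells in the sterol values was not tested. In bulk RNA a change in the share of cells and a change in RNA per cell cannot be told apart.

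The 11 iron starvation genes listed summed to 5616 and 5487 CPM in mot2∆ mamRNA∆, 3241 and 3840 CPM in mot2∆, 3009 and 3010.0 CPM in mamRNA∆, and 3604 and 3212 CPM in wt, with 1 of the 11 at 0 in a library. In mot2∆ mamRNA∆ against wt 7 were higher and 2 lower, in mot2∆ 4 higher and 2 lower, and in mamRNA∆ 0 higher and 3 lower (edgeR; 0 higher also at an unadjusted p and with DESeq2). The totals in mot2∆ and mamRNA∆, 6 of 11 and 3 of 11, were below the 59.2% and 42.5% of all features that passed, and the 9 of 11 in mot2∆ mamRNA∆ stood beside 59.4%. The mot2∆ mamRNA∆ libraries stood above the rest in this sum. Of the 8 genes, they did so in erg25, hmg1, erg11 and erg27 and did not in sre1, scp1, erg6 and erg5. The iron transporter gene str1 had 1854 and 1764 CPM in mot2∆ mamRNA∆, 991 and 1062 CPM in mot2∆, 388 and 434 CPM in mamRNA∆, and 470.4 and 401 CPM in wt (2.05 ± 0.103 in mot2∆ mamRNA∆ against wt, edgeR adjusted p = 2.42e-08). In the same comparison str3 rose by 6.43 ± 0.42 (edgeR adjusted p = 1.95e-07), and the value of str2 did not pass (-0.11, adjusted p = 0.381). The level of str2 was lower in mot2∆ than in wt (-0.59, edgeR adjusted p = 0.000323). Whether iron supply had a part in the values of the sterol genes was not tested.

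The 8 genes did not share one profile over the 8 libraries. As a measure of likeness, each profile of log2 CPM was centred on its mean and the root mean square difference (RMS) from every other sense feature was taken over the 8 libraries. The closest pair among the 8 genes was hmg1 and erg5, at an RMS of 0.0641, which placed erg5 at rank 19 among the features nearest to hmg1 and hmg1 at rank 29 among those nearest to erg5. The nearest of the 8 to sre1 was erg5 at 0.233, and to erg25 hmg1 at 0.216. Profiles were not scaled by their spread, so genes that change in the same order by different amounts also come out as unlike. The standard deviation of log2 CPM was 0.398 for erg25 and 0.184 for hmg1. The features most like sre1 were sck1 (0.0936), gea1 (0.0947) and ptr3 (0.0948), those most like scp1 were but1 (0.0398), pof4 (0.0444) and SPACUNK4.08 (0.0496), and those most like hmg1 were ppk38 (0.0355), cdc1 (0.0359) and SPCC594.01 (0.0371).

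For the later steps, erg11 was most like aur1 (0.0504), SPAP27G11.12 (0.0536) and ecm33 (0.0597), and erg5 most like npl4 (0.0367), ppk38 (0.0413) and zas1 (0.042). The features nearest to erg25 were spa2 (0.095), the Ofd1 inhibitor gene nro1 (0.0952) and agn1 (0.103). Those nearest to erg27 were clc1 (0.0332), tco89 (0.0423) and SPBC3F6.02c (0.0501), which is erg26, the dehydrogenase that acts between Erg25 and Erg27. The feature nearest to erg6 was its overlapping neighbour uvi31 (0.011), followed by frs1 (0.0428) and gus1 (0.0445). These values describe the libraries, which are few, and carry no test.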

How the data were processed

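Total RNA of 8 libraries, 2 per genotype, was prepared with hot acid phenol, cleared of ribosomal RNA with RiboZero gold and sequenced in pairs of 75 nt. The authors demultiplexed with bcl2fastq 2.18.12, trimmed with Cutadapt 1.15, aligned with Bowtie2 and counted reads per feature with MulticovBed on Galaxy. The values deposited are raw counts, whole numbers with no normalization. The build and strand setting are not given in the sources used here, so no coordinates, gene lengths, promoter motifs or sequences are given, and RefSeq (ASM294v3) was used only for names and for which genes overlap. The planned promoter and length steps were not run for that reason.

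Features were kept with filterByExpr (minimum count 10, minimum total 15; 6620 of 6973) and scaled by TMM. All 8 libraries were fitted with 1 coefficient per genotype in edgeR 4.0.16 (limma 3.58.1, R 4.3.3), with two-sided quasi-likelihood tests and Benjamini-Hochberg adjustment over the 6620 features. The 6 comparisons include the difference between the effect of deleting mamRNA in mot2∆ and in wt cells (equally, of deleting mot2 with and without mamRNA). The SE is the log2 fold change divided by the square root of F. The code was tested on simulated data. The genes and lists were chosen with earlier results of these data known. Of list genes, levels or changes are given for some of those that passed with a change over 1.5-fold, at most 4 per list and comparison. Others past that limit, among them hem12, php4 and spo5, were only counted. Of profiles, it names the 3 nearest to each gene. Profiles used log2 CPM with a prior count of 2. Replicates of a genotype differed by more than sampling noise (chi-square per degree of freedom 6.88 to 45.7), so each library counts as 1 sample. Alternatives were RLE size factors, total counts, 3 other feature filters, leaving out antisense features, DESeq2 1.42.0, only the genotypes compared, a replicate block, leaving out each library, and a fold limit.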

Additional observations from a re-analysis of the deposited data

Results flagged for a closer look

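For 4 of the 8 genes the effect of deleting mamRNA differed between mot2∆ cells and wt cells, by a test of the difference itself. This was an edgeR quasi-likelihood test, Benjamini-Hochberg adjusted over all features. Of all features 47.6% passed it, so a count of 4 of 8 does not set these genes apart. For sre1 the difference was -0.53 (adjusted p = 0.00804), with a rise of 0.42 in wt cells and a value of -0.11 in mot2∆ cells. For erg6, whose counts cannot be told apart from those of uvi31, it was 0.56 (adjusted p = 0.00182). For erg25 it was 0.44 (adjusted p = 0.0059), and for erg27, whose counts match those of its antisense feature, 0.39 (adjusted p = 0.00616).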

How the results depend on the processing

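Of the 27 calls made for the 8 genes over the 6 comparisons, 14 held in each of the 17 or 18 alternatives, which leave out the limit on the fold, and 0 changed sign in any. Of the 21 values that did not pass, 12 changed sign somewhere and 8 passed somewhere, and the cause was not tested. Leaving out each library in turn gave 3 to 5 of the 8 genes in mot2∆ against wt, 0 to 3 in mamRNA∆ against wt (0 without wt replicate 2), 3 to 6 in mot2∆ mamRNA∆ against wt, 2 to 5 against mot2∆, 3 to 7 against mamRNA∆ (3 without mot2∆ mamRNA∆ replicate 1) and 4 to 6 for the difference between effects. The features passing in mamRNA∆ against wt then ranged from 1720 (without mamRNA∆ replicate 2) to 2923. The 8 genes gave 1 call in mamRNA∆ against wt with RLE size factors and 1 with only the genotypes compared, and 2 in mot2∆ mamRNA∆ against mot2∆ with total counts. With a change over 1 required as well, 0 of the 8 passed in each comparison, and against wt 567 (mot2∆), 264 (mamRNA∆) and 582 (mot2∆ mamRNA∆), and for mot2∆ mamRNA∆ 446 (against mot2∆), 653 (against mamRNA∆) and 738 (difference between effects) features did. The log2 values that changed sign when a library was left out ranged, in mot2∆ against wt, from -0.12 to 0.21 for erg11 and from -0.034 to 0.095 for erg27. In mamRNA∆ against wt they ranged from -0.12 to 0.17 for hmg1, from -0.12 to 0.16 for erg5, from -0.15 to 0.050 for erg6 and from -0.16 to 0.16 for erg11. In mot2∆ mamRNA∆ they ranged against wt from -0.17 to 0.0071 for scp1 and from -0.11 to 0.090 for erg6, and against mot2∆ from -0.0062 to 0.12 for scp1 and from -0.025 to 0.044 for erg5. The difference between effects for erg5 ranged from -0.15 to 0.13. Other changes of sign in mamRNA∆ against wt were -5.6e-05 for erg5 with RLE size factors, and for erg11 0.021 with total counts, 0.00057 without features over 1% of a library, 0.0076 with at least 10 counts in every library and 0.0012 without antisense features. In mot2∆ mamRNA∆ against mot2∆, total counts gave -0.028 for scp1 and -0.075 for erg5, which was -0.0011 with at least 10 counts in every library and -0.0065 without antisense features. In mot2∆ mamRNA∆ against mamRNA∆, total counts gave -0.047 for erg6. The difference between effects for erg5 was -0.12 with total counts, -0.019 without features over 1% of a library, -0.0076 with no filter, -0.029 with at least 10 counts in every library and -0.028 without antisense features. Total counts moved the median of all features to -0.11 in mot2∆ mamRNA∆ against mamRNA∆ and in the difference between effects. The share of calls that were higher was then 38.0% against mot2∆ (48.8% with TMM), 39.7% (49.0%) against mamRNA∆ and 38.2% (51.1%) for the difference between effects. The replicate numbers did not pair the libraries (r between genotypes -0.108 to 0.163). A replicate block left the calls at 4, 2, 6, 4, 7 and 4 of the 8 genes, the same numbers as without it, and a block with the mamRNA∆ numbers crossed, added after seeing the data, gave 7 against mamRNA∆ and 4 for the difference.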
